A study of Arabidopsis thaliana with 9 samples.

Results

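The WRKY transcription factors of the Arabidopsis thaliana root were followed over a time course in which the bZIP transcription factor PERIANTHIA (PAN) was switched on. The 45 WRKY loci examined were named by locus identifier, a choice made with earlier results of these data known. Of these, 44 had a row of their own among the 33201 rows of the expression table, and 39 of those 44 had a mean value of at least 1 over the 3 times. The remaining locus, WRKY45 (AT3G01970), shared a row with its neighbour AT3G01980. The reference annotation (TAIR10.1) names 72 protein-coding WRKY loci in all.

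WRKY factors are a plant family of DNA-binding proteins named after the conserved letters of their domain, which binds the W box, a short element around the core TTGAC found in the promoters of many defence and stress genes. Many WRKY genes carry W boxes in their own promoters, so that members can act on each other and on themselves. The family is divided by domain structure: group I proteins have a pair of WRKY domains, the subgroups IIa to IIe have a single domain and differ in their additional motifs, and group III has a variant zinc finger. In roots, members are known from responses to microbes, wounding, phosphate supply and hormones, and from the patterning of hair cells.

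All groups were roots of 1 kind of plant, the XVE:PAN transgenic line in the Col-0 ecotype, in which β-estradiol activates the PAN transgene. Plants grew for 5 days in total on medium with 1% sucrose and spent the last 0, 6 or 24 h of it on the same medium with 10 uM β-estradiol. Each time had 3 biological replicates, 9 samples in all. One label calls the tissue whole root and another describes dissection about 0.5 cm from the tip. Neither the promoter that drives the XVE activator nor the number of independent lines is given in the sources used here. The samples include neither mock-treated plants nor a line lacking the transgene, so PAN induction, exposure to estradiol and time since transfer cannot be told apart.

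The authors combined the 3 replicates of each time before deposit, so each gene has 1 value per time, taken here as FPKM (fragment counts scaled by transcript length and library size). No replicate spread can therefore be shown, and the number of reads is unknown. A gene was called higher or lower if it met a pair of limits: a q-value under 0.05 in the authors' deposited table, and a mean of 1 FPKM or more across the 3 times, a mean that 17841 rows had. Changes are differences in log2(FPKM + 1), a scale that understates the change of low genes, and the smallest q-value in the authors' deposited table is 0.000358. PAN (AT1G68640) had 1.03 FPKM at 0 h, 688 at 6 h and 385 at 24 h. Of the 7 root identity markers examined, 6 had a mean of at least 1, among them the endodermal gene CASP1 with 536 to 792 FPKM and the hair cell gene SHV2 (COBL9) with 42.1 to 132. Of 3 photosynthesis genes used as shoot markers, CAB2 had at most 0.316 FPKM, RBCS1A 2.99, 1.66 and 12.8, and LHCA1 4.32, 3.84 and 7.35 at 0, 6 and 24 h.

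The WRKY genes covered a wide range of transcript levels. At 0 h the highest was WRKY65 (AT1G29280), with 157 FPKM, followed by WRKY36 (132), WRKY11 (107), WRKY17 (90.2) and WRKY6 (84.6). The lowest was WRKY55, with 0.0686 FPKM. The median over the 44 genes was 10.3 FPKM at 0 h, 13.4 at 6 h and 11.9 at 24 h, and their summed level was 1132, 1225 and 927 FPKM. By 24 h the order had changed below WRKY65, which stayed first with 135 FPKM. WRKY40 moved from place 24 at 0 h to place 2 at 24 h with 75.0 FPKM, whereas WRKY36 moved from place 2 to place 7 and WRKY42 from place 25 to place 35. Places that lie close together cannot be separated, because the spread between replicates is not known.

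**Figure D1:**
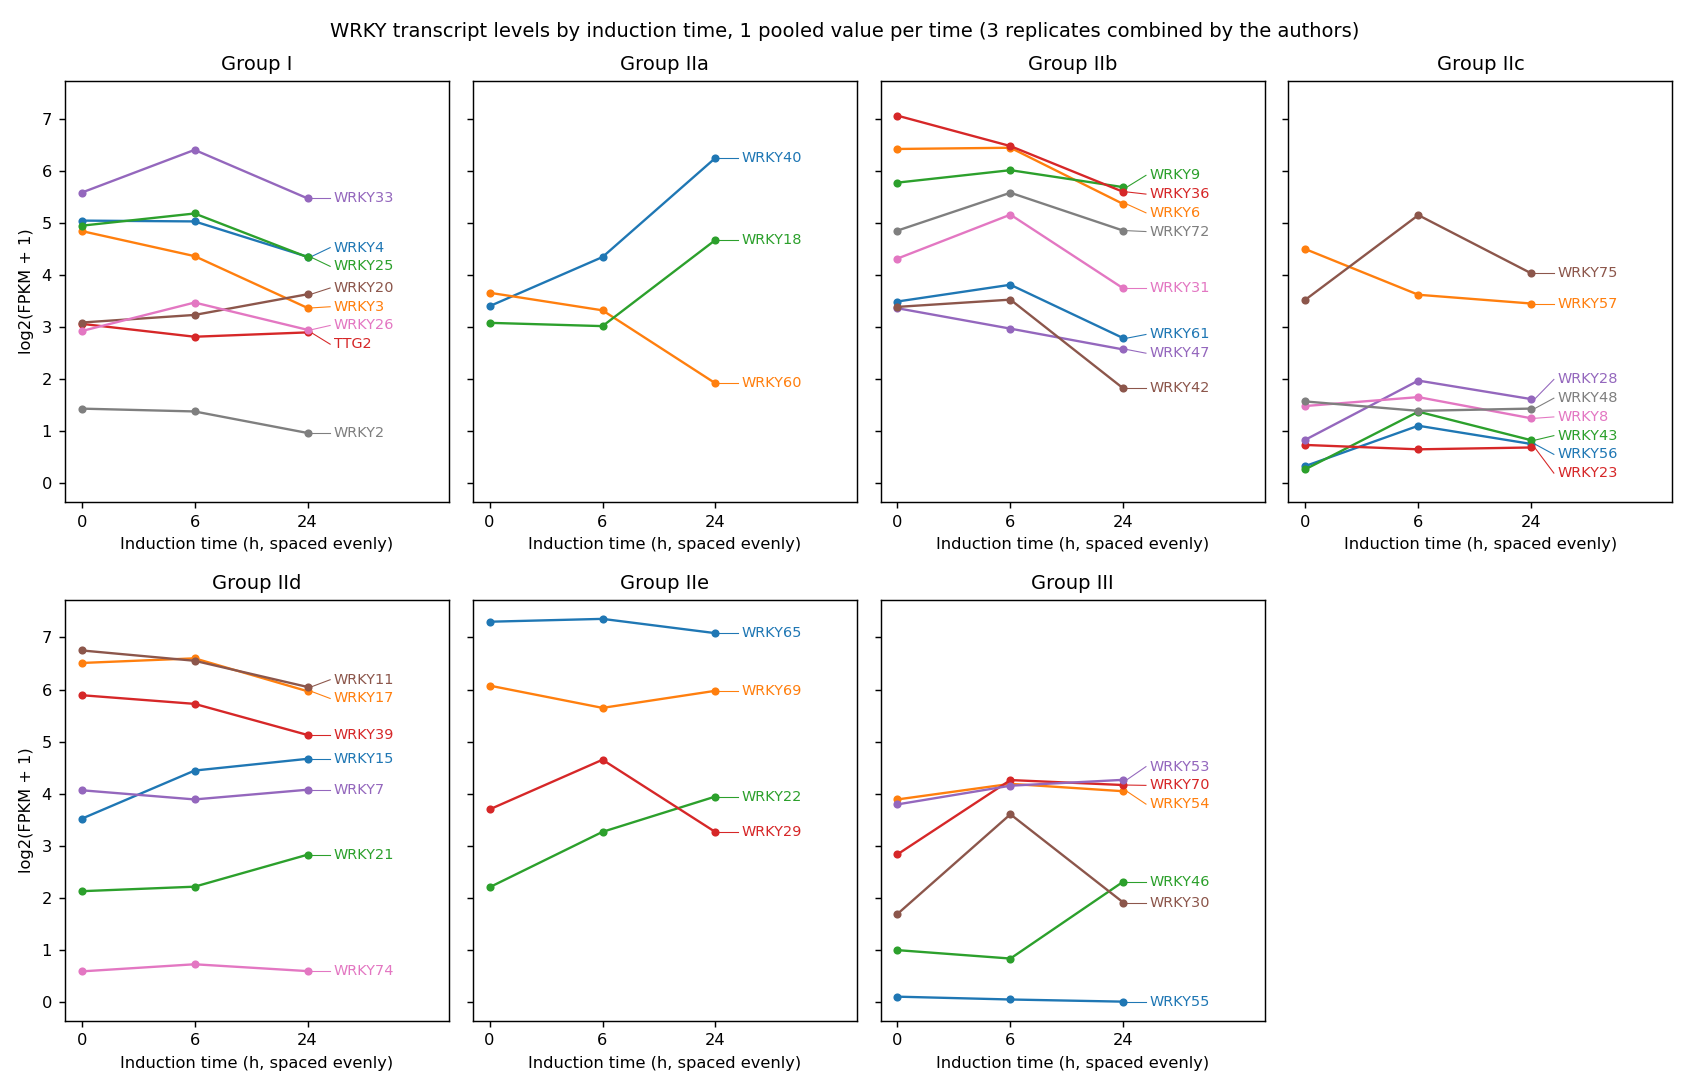
Transcript level of each of the 44 WRKY genes with a row of its own, as log2(FPKM + 1), at 0, 6 and 24 h of induction, in 1 panel for each structural group. Points are single pooled values with no error bar; WRKY40 and WRKY18 end above and WRKY60 below its 0 h level in group IIa, while WRKY30, WRKY75, WRKY33, WRKY31 and WRKY29 peak at 6 h.

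After 6 h, the WRKY genes that were called were mainly higher. Of the 39 genes tested, 12 (30.8%) rose and 3 (7.69%) fell, while 24 were not called. Over all genes tested, 3.98% were called higher and 7.35% lower in this comparison. The 12 risen genes were WRKY30, WRKY75, WRKY70, WRKY28, WRKY22, WRKY29, WRKY40, WRKY15, WRKY31, WRKY33, WRKY72 and WRKY26, in falling order of change from 1.92 to 0.55. The 3 fallen genes were WRKY57, WRKY36 and WRKY3. The median change of the 39 genes was 0.14, against 0.019 over all genes tested. Among the called genes, WRKY26 and WRKY3 had the q-values nearest to the limit in the authors' deposited table, 0.0479 and 0.0271. When the p-values behind the q-values were adjusted within this comparison alone, these 2 genes were no longer called. Their p-values adjusted in that way by the Benjamini-Hochberg method, from the authors' Cuffdiff-type test, were 0.138 and 0.0836, and 11 higher and 2 lower calls were left.

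After 24 h, WRKY genes were called in both directions. Against 0 h, 9 of the 39 genes (23.1%) rose and 15 (38.5%) fell, while 15 were not called. The background was 23.8% of all genes called higher and 23.8% called lower, so the share of risen WRKY genes was close to that of all genes and the share of fallen ones above it. The median change was -0.14, against 0.046 over all genes tested. Among larger changes, falls did not outnumber rises. With a minimum change of 1 in log2(FPKM + 1), 6 genes were called higher and 6 lower. With that limit on the log2 fold change in the authors' deposited table, 7 were higher and 6 lower. The share of all genes at these limits was not computed, so an excess over it cannot be judged there. The largest rises were those of WRKY40 (2.85), WRKY22 (1.74) and WRKY18 (1.59), and the largest falls those of WRKY60 (-1.74), WRKY42 (-1.57) and WRKY3 (-1.48).

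Between 6 and 24 h, 5 of the 39 genes (12.8%) rose and 17 (43.6%) fell, and 17 were not called. Over all genes tested 19.6% were called higher and 19.8% lower. The median change was -0.41, against 0.031 over all genes. WRKY40, WRKY18, WRKY46, WRKY22 and WRKY21 were the risen genes. WRKY42 and WRKY30 had the largest falls, of -1.71 and -1.70. Each pair of comparisons shares the libraries of 1 time, so the 3 sets of calls are not independent of each other and their overlap was not used as a result.

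**Figure D2:**
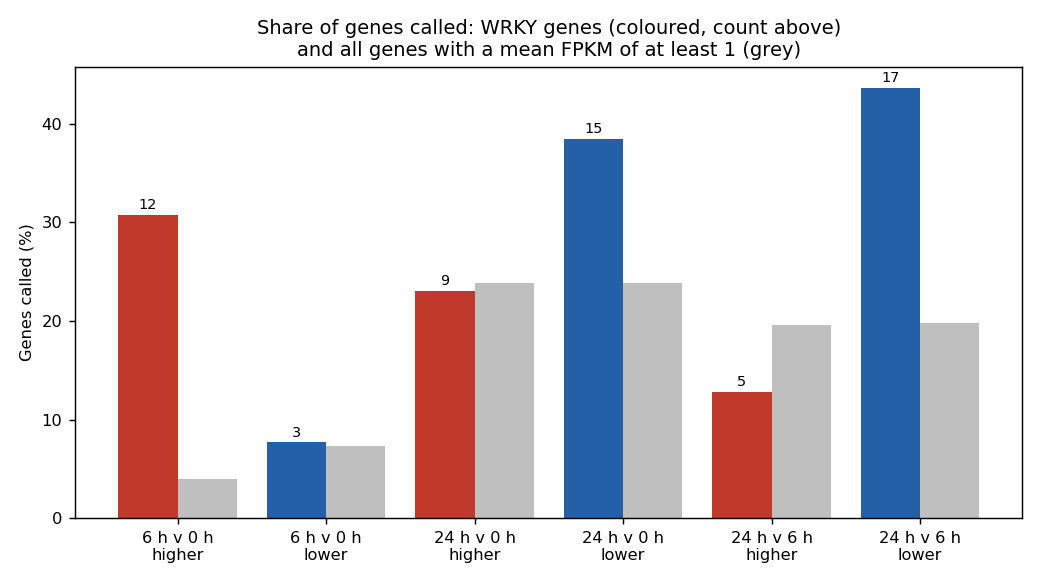
Percentage of genes called higher (red) or lower (blue) in each comparison for the 39 WRKY genes tested, with the count above the bar, and for all 17841 genes tested (grey). The WRKY bar for higher at 6 h against 0 h stands at 30.8% beside a grey bar of 3.98%; for higher at 24 h against 0 h, 23.1% stands beside 23.8%.

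**Figure D3:**
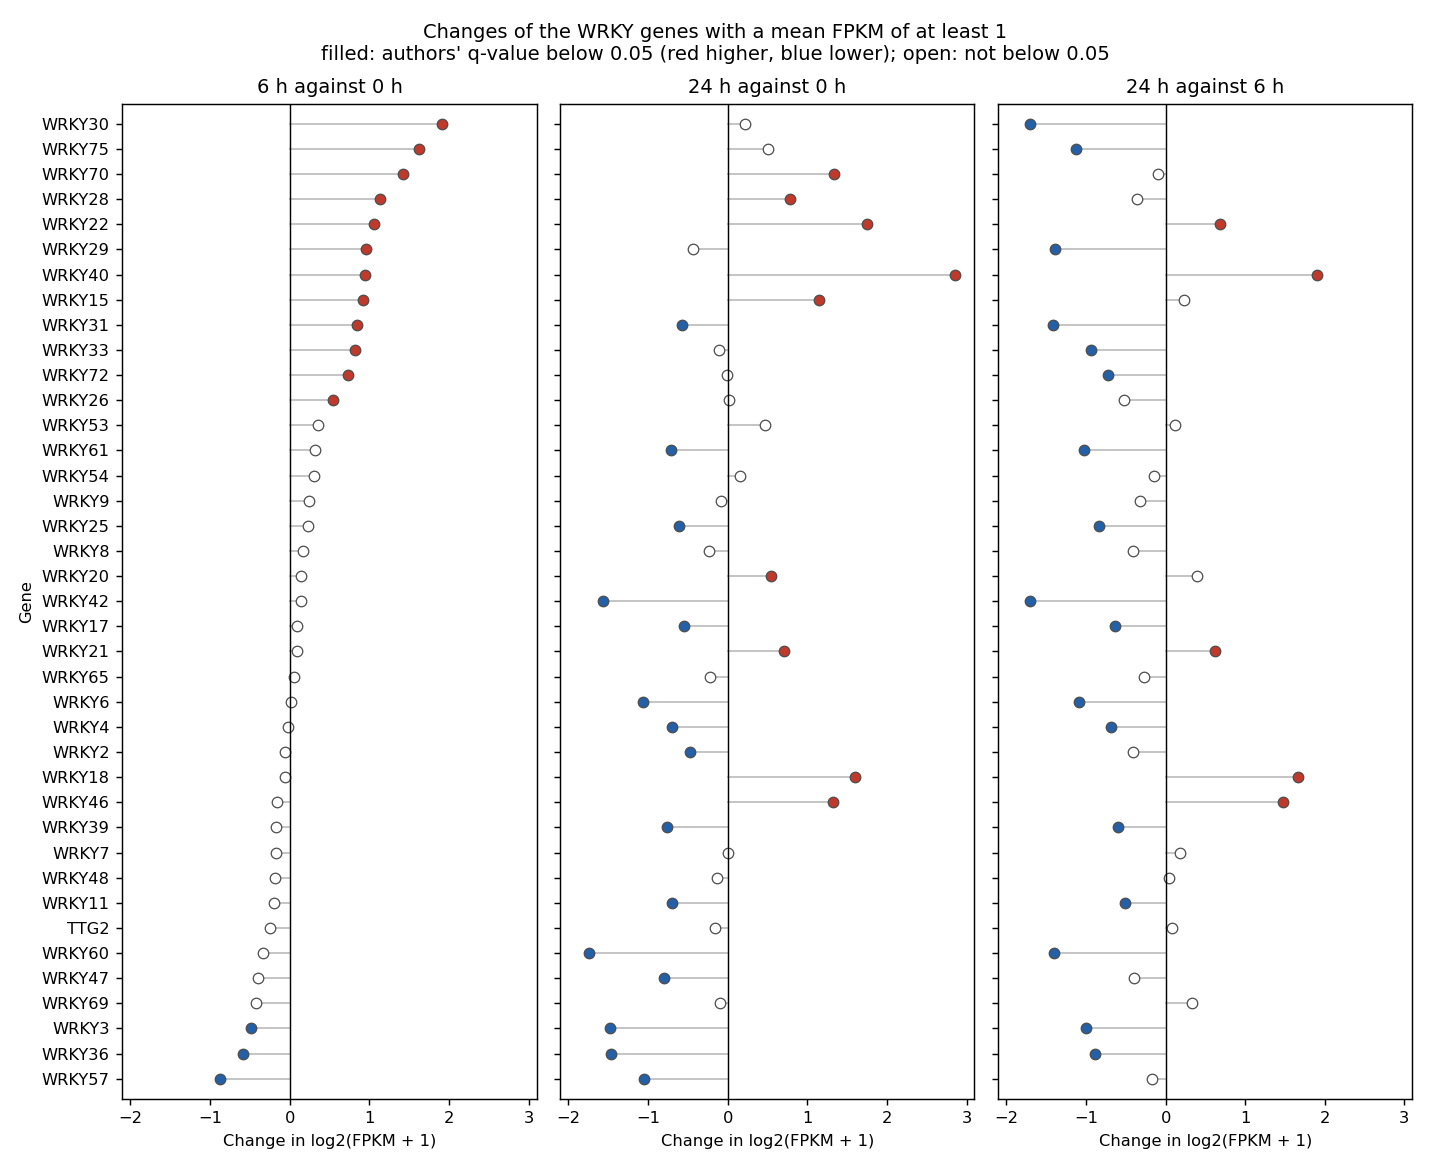
Change in log2(FPKM + 1) of the 39 WRKY genes in each comparison, ordered by the change at 6 h against 0 h; filled circles are called by the authors' q-value (red higher, blue lower) and open circles are not. WRKY30 leads at 6 h with 1.92 and has an open circle at 24 h against 0 h, while WRKY40 reaches 2.85 there.

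The promoters of the genes that rose at 6 h were read to show which of them carry the W box that WRKY proteins bind, and the TGACG element bound by the TGA family of bZIP factors to which PAN belongs. The windows are the 300 bases before the annotated gene start in TAIR10.1, written 5′ to 3′ on the strand of the gene. A W box was counted as TTGACC or TTGACT on either strand, and TGACG likewise on either strand; no W box overlapped a TGACG in the windows of the 45 loci. Below are the 4 risen genes with more than 1 W box, with the W boxes in capitals (AGTCAA and GGTCAA are W boxes on the other strand): WRKY15 at chr2:9924586-9924885 (plus strand), WRKY29 at chr4:12291332-12291631 (plus), WRKY30 at chr5:8154711-8155010 (minus) and WRKY33 at chr2:16107935-16108234 (plus).
WRKY15: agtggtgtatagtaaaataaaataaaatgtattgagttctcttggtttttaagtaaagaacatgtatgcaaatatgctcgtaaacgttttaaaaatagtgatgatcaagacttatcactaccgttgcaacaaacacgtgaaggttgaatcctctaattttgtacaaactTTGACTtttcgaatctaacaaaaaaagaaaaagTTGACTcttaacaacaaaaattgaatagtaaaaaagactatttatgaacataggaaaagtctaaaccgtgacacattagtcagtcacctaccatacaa
WRKY29: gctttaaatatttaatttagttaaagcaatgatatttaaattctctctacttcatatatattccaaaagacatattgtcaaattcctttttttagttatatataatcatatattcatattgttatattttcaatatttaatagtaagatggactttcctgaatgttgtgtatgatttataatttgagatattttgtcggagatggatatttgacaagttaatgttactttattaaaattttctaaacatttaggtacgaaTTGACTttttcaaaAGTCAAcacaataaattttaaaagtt
WRKY30: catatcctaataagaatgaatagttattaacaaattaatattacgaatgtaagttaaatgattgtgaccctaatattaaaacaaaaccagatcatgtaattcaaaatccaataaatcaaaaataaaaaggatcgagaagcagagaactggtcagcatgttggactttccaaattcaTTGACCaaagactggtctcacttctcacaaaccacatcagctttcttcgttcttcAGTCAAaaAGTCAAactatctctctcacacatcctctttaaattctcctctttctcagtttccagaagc
WRKY33: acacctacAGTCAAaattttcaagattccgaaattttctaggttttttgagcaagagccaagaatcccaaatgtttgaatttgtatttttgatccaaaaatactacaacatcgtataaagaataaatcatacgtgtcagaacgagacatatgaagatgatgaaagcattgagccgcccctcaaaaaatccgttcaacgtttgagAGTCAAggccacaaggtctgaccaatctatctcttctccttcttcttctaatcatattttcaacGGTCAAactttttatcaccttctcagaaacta

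The W boxes of WRKY30 began 124, 69 and 61 bases before the gene start and those of WRKY33 292, 96 and 32 bases before it. In WRKY29 they lay 40 and 26 bases before the start, on opposite strands, and in WRKY15 131 and 98 bases before it, on the same strand. Of the 12 genes that rose at 6 h, 8 (66.7%) had a W box in this window and 4 (33.3%) had more than 1. Among all 27443 protein-coding nuclear genes, 32.3% had one and 7.91% had more than 1, and among the 45 WRKY loci 42.2% and 15.6%. The other 4 risen genes with a W box were WRKY75, WRKY28, WRKY26 and WRKY72, with 1 each. Of the 3 genes that fell at 6 h only WRKY36 had one, 9 bases before the start. Among the genes called at 24 h against 0 h, a W box was found in 4 of the 9 risen (44.4%) and in 4 of the 15 fallen genes (26.7%).

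The TGACG element was found in the windows of 5 of the 12 risen genes (41.7%), namely WRKY22, WRKY70, WRKY31, WRKY40 and WRKY72, against 21.3% of all protein-coding nuclear genes and 20.0% of the 45 WRKY loci. The 3 with more than 1 are shown with TGACG, or CGTCA where it lies on the other strand, in capitals: WRKY22 at chr4:524250-524549, WRKY31 at chr4:11694591-11694890 and WRKY70 at chr3:20910624-20910923, each on the minus strand.
WRKY22: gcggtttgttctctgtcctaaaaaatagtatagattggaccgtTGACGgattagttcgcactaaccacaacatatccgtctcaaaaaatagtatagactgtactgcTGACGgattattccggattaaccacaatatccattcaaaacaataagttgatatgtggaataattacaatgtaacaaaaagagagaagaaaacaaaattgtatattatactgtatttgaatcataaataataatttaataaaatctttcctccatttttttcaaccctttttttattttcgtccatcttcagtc
WRKY31: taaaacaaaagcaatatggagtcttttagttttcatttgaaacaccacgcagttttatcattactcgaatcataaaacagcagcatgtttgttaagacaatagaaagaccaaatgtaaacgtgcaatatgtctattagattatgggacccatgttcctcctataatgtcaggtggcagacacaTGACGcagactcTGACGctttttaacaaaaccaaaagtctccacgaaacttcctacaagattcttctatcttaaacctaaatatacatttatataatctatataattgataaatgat
WRKY70: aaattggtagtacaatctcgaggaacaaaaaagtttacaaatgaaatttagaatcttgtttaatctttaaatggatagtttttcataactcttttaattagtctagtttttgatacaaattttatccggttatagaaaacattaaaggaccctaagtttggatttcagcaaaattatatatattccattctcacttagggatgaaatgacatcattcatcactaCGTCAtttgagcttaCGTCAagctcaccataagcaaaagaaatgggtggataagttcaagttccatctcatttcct

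In WRKY70 the elements began 76 and 61 bases before the gene start, in WRKY31 117 and 105, and in WRKY22 257 and 194. The copy at 61 in WRKY70 and that at 257 in WRKY22 read TTGACG. This holds the core TTGAC but was not counted as a W box. TGACG was also found in WRKY42, with 3 copies, and in WRKY6, WRKY25 and WRKY43, which were not among the genes called at 6 h. Of the 3 genes that fell at 6 h, 0 had a TGACG. Among the genes called at 24 h against 0 h, 3 of the 9 risen (33.3%) and 4 of the 15 fallen (26.7%) had one. Both shares lay above the 21.3% of all protein-coding nuclear genes. Each of the 12 genes that rose at 6 h had a W box or a TGACG in its window. This compares with 46.7% of all protein-coding nuclear genes and 57.8% of the 45 WRKY loci. This combination of both elements was chosen after the genes and their windows had been seen, and no test was made. A match of letters is not a bound site, and binding was not measured in these samples.

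The subgroup IIa holds WRKY18 (AT4G31800), WRKY40 (AT1G80840) and WRKY60 (AT2G25000), which form complexes with themselves and each other and are known as regulators of defence and abscisic acid responses. WRKY40 had 9.54 FPKM at 0 h, 19.3 at 6 h and 75.0 at 24 h. It rose in each comparison, by 0.94 in the first 6 h, by 1.91 from then to 24 h and by 2.85 over the whole course, and reached 7.86 times its starting level. In the authors' deposited table the first of these had q = 0.00336 and the others q = 0.000358. WRKY18 had 7.44, 7.08 and 24.5 FPKM. Its rise at 24 h was 1.59 against 0 h and 1.66 against 6 h, both with q = 0.000358 in the authors' deposited table, and its change of -0.063 at 6 h was not called. WRKY60 went the other way, with 11.6, 8.97 and 2.77 FPKM. At 24 h it stood 4.19-fold lower than at 0 h, a fall of 1.74 with q = 0.000358 in the authors' deposited table. The 3 genes lay between 7.44 and 11.6 FPKM at 0 h and between 2.77 and 75.0 at 24 h. In TAIR10.1, WRKY40 lies at chr1:30383561-30385499, WRKY18 at chr4:15382777-15385100 and WRKY60 at chr2:10629662-10631413.

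In subgroup IIe, WRKY22 (AT4G01250) and WRKY29 (AT4G23550) are known as factors downstream of the mitogen-activated protein kinase cascade that is started by bacterial flagellin. Both rose at 6 h. WRKY22 had 3.59, 8.60 and 14.4 FPKM and rose by 1.06 at 6 h and 1.74 at 24 h against 0 h, and by 0.68 between 6 and 24 h. In the authors' deposited table its q-values were 0.000358 for both comparisons with 0 h and 0.00903 for the later one. WRKY29 had 11.96, 24.1 and 8.58 FPKM. It rose by 0.95 at 6 h and fell by 1.39 from 6 to 24 h, each with q = 0.000358 in the authors' deposited table. Its change of -0.44 at 24 h against 0 h was not called, with q = 0.156 there. WRKY29 overlaps GH9B15 (AT4G23560) on the other strand and shares 11.7% of its 100 bp transcript stretches with it; GH9B15 had at most 0.050 FPKM. The other members of the subgroup, WRKY65 (157, 163 and 135 FPKM) and WRKY69 (66.4, 49.1 and 61.9 FPKM), were called in no comparison. For WRKY69 the authors' deposited table gives q = 0.0565 at 6 h.

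Group III holds factors known from salicylic acid signalling, leaf senescence and brassinosteroid growth responses. WRKY30 (AT5G24110), known to respond quickly to oxidative stress and elicitors, had 2.22, 11.1 and 2.74 FPKM. Its level at 6 h was 5.02 times that at 0 h, a rise of 1.92, and it fell by 1.70 from 6 to 24 h, each with q = 0.000358 in the authors' deposited table. WRKY70 (AT3G56400), a factor between salicylic acid and jasmonic acid signalling, had 6.12, 18.2 and 16.9 FPKM. It rose by 1.43 at 6 h and 1.33 at 24 h against 0 h, both with q = 0.000358 in the authors' deposited table. Between 6 and 24 h it changed by -0.096 and was not called. WRKY46 (AT2G46400), which acts with WRKY54 and WRKY70 in brassinosteroid-dependent growth, had 0.987, 0.776 and 3.95 FPKM. It rose by 1.32 at 24 h against 0 h and by 1.48 against 6 h, with q = 0.000358 for both in the authors' deposited table, and it passed the filter on low values only through its 24 h level. WRKY54 (13.8, 17.2 and 15.5 FPKM) and the senescence regulator WRKY53 (12.9, 16.8 and 18.2 FPKM) were called in no comparison. WRKY53 shares 15.1% of its 100 bp stretches with the overlapping gene 3xHMG-box2 (AT4G23800), which had 14.0, 19.8 and 29.0 FPKM.

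Group I includes WRKY33 (AT2G38470), required for camalexin synthesis and resistance to necrotrophic fungi, and its relatives WRKY25 and WRKY26, which act with it in heat tolerance. WRKY33 had 46.9, 83.6 and 43.3 FPKM. It rose by 0.82 at 6 h and fell by 0.93 from 6 to 24 h, each with q = 0.000358 in the authors' deposited table, and its level at 24 h differed from that at 0 h by -0.11, with q = 0.771 there. WRKY26 (AT5G07100) had 6.57, 10.1 and 6.69 FPKM, a rise of 0.55 at 6 h. WRKY25 (AT2G30250) had 29.8, 35.2 and 19.3 FPKM. Its change of 0.23 at 6 h was not called, and it fell by 0.60 at 24 h against 0 h and by 0.84 against 6 h, with q-values of 0.00832 and 0.000358 in the authors' deposited table.

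The related pair WRKY3 (AT2G03340) and WRKY4 (AT1G13960), also known from resistance to necrotrophs, was lower at 24 h. WRKY3 had 27.7, 19.5 and 9.30 FPKM and fell by 0.48 at 6 h and by 1.48 at 24 h against 0 h, and by 1.00 from 6 to 24 h. Its 24 h level was 2.98-fold lower than at 0 h, with q = 0.000358 in the authors' deposited table. WRKY4 had 32.0, 31.6 and 19.4 FPKM and fell by 0.70 at 24 h against 0 h and by 0.68 against 6 h, each with q = 0.000951 in the authors' deposited table. WRKY2 (AT5G56270), which acts in the polarity of the zygote, had 1.69, 1.59 and 0.946 FPKM, and its fall of 0.47 at 24 h had q = 0.0346 in the authors' deposited table. WRKY20 (AT4G26640) was the group I gene that rose at 24 h, by 0.54, with 7.48, 8.38 and 11.4 FPKM and q = 0.0214 in the authors' deposited table. TTG2 (AT2G37260), the WRKY gene of trichome and root hair patterning, had 7.33, 6.02 and 6.43 FPKM and was called in no comparison.

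At 24 h against 0 h, 6 of the 8 genes of subgroup IIb fell and 0 were called higher by the authors' q-values, also at an unadjusted p-value under 0.05. At that p-value 5088 of all 17841 genes tested were higher. Over all genes tested 23.8% were called lower and 23.8% higher, and among genes whose longest transcript reached 2000 bp, as in 3 of the 8, 38.7% were called lower. Its median change in that comparison was -0.75. WRKY6 (AT1G62300) and WRKY42 (AT4G04450) are known as repressors of PHO1, which exports phosphate into the xylem. WRKY6 had 84.6, 86.0 and 40.1 FPKM and fell by 1.06 at 24 h against 0 h. WRKY42 had 9.44, 10.5 and 2.52 FPKM and fell by 1.57, to a level 3.74-fold lower. WRKY36 (AT1G69810) had 132, 88.0 and 47.3 FPKM and was lower at each step, by 0.58 in the first 6 h and by 0.88 from then to 24 h. For these 3 falls over 24 h the authors' deposited table gives q = 0.000358 each, and for WRKY36 at 6 h q = 0.00776. Smaller falls at 24 h against 0 h were those of WRKY47 (-0.79; 9.26, 6.81 and 4.92 FPKM), WRKY61 (-0.71; 10.2, 13.02 and 5.88 FPKM) and WRKY31 (-0.57).

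At 6 h, subgroup IIb had 2 risen genes. WRKY31 (AT4G22070) had 18.9, 34.7 and 12.4 FPKM and rose by 0.84 at 6 h before a fall of 1.42 from 6 to 24 h. WRKY72 (AT5G15130), needed for defence against root-knot nematodes, had 27.9, 46.8 and 27.8 FPKM, a rise of 0.73 and then a fall of 0.73. All 4 of these changes had q = 0.000358 in the authors' deposited table. WRKY9 (AT1G68150) had 53.7, 63.6 and 50.5 FPKM and was called in no comparison.

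In subgroup IIc, WRKY75 (AT5G13080), which is induced by phosphate starvation and restrains lateral roots and root hairs, had 10.5, 34.5 and 15.3 FPKM. Its 6 h level was 3.29 times that at 0 h, a rise of 1.63, and it fell by 1.12 from 6 to 24 h, each with q = 0.000358 in the authors' deposited table. At 24 h against 0 h the change of 0.51 was not called, with q = 0.0939 there. WRKY28 (AT4G18170), an activator of salicylic acid synthesis, had 0.778, 2.91 and 2.06 FPKM and rose by 1.14 at 6 h and 0.78 at 24 h, with q-values of 0.00174 and 0.0188 in the authors' deposited table. It passed the filter on low values only through its levels at 6 and 24 h. WRKY57 (AT1G69310), known from drought tolerance and jasmonate-induced senescence, had 21.6, 11.3 and 9.92 FPKM. It fell by 0.88 at 6 h and by 1.05 at 24 h against 0 h, both with q = 0.000358 in the authors' deposited table. WRKY8 (1.79, 2.14 and 1.37 FPKM) and WRKY48 (1.96, 1.61 and 1.69 FPKM) were called in no comparison.

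Subgroup IId consists of factors that bind calmodulin, and its members went in both directions at 24 h. WRKY11 (AT4G31550) and WRKY17 (AT2G24570), which together restrain basal resistance to bacteria, had 107, 92.9 and 65.2 FPKM and 90.2, 96.0 and 61.6 FPKM. They fell by 0.70 and 0.54 at 24 h against 0 h, with q-values of 0.00122 and 0.0117 in the authors' deposited table. WRKY39 (AT3G04670) had 58.3, 51.9 and 33.9 FPKM and fell by 0.76, with q = 0.000666 there. WRKY15 (AT2G23320), a factor of growth and osmotic stress responses, had 10.4, 20.7 and 24.4 FPKM. It rose by 0.93 at 6 h and 1.15 at 24 h against 0 h, with q-values of 0.000666 and 0.000358 in the authors' deposited table. WRKY21 (AT2G30590) had 3.36, 3.63 and 6.09 FPKM and rose by 0.70 at 24 h, with q = 0.00604 there. WRKY7 (15.7, 13.8 and 15.8 FPKM) was called in no comparison.

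Below the filter lay 5 genes: WRKY43, WRKY56 and WRKY23 of subgroup IIc, WRKY74 of subgroup IId and WRKY55 of group III. WRKY43 had 0.20, 1.58 and 0.767 FPKM and WRKY56 0.253, 1.14 and 0.681 FPKM. The auxin-induced gene WRKY23 had 0.565 to 0.659 FPKM, WRKY74 0.497 to 0.646, and WRKY55 at most 0.0686 and was listed at 0 at 24 h. None of them had a q-value below 0.05 in the authors' deposited table. The row that joins WRKY45 with AT3G01980 had 21.4, 25.5 and 20.1 FPKM and q-values of 0.213 to 0.799 in the authors' deposited table; the share of WRKY45, an activator of the phosphate transporter PHT1;1, in it is not known.

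The direction of the changes at 24 h went with transcript length in all genes, and in the WRKY genes of the shortest and longest classes. Among the 14 WRKY genes with a longest transcript under 1500 bp, 6 rose and 1 fell at 24 h against 0 h. Of the 10 with at least 2000 bp, 2 rose and 7 fell. Over all genes of the same classes, 37.2% and 10.0% were called higher and 12.1% and 38.7% lower. When the running median of the change by length was removed, the 24 called genes kept their direction. WRKY40 then had a change of 2.58, WRKY18 1.45, WRKY60 -1.97, WRKY42 -1.41 and WRKY6 -0.86, while WRKY2, whose transcript of 3035 bp was the longest, was left with -0.11. At 6 h the trend over all genes was nearly flat, but 8 of the 14 short WRKY genes rose (57.1%), against 4.40% of all genes under 1500 bp, and 4 of the other 25 rose. Removing the trend left WRKY30 at 1.86, WRKY75 at 1.58 and WRKY70 at 1.40 at 6 h.

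**Figure D4:**
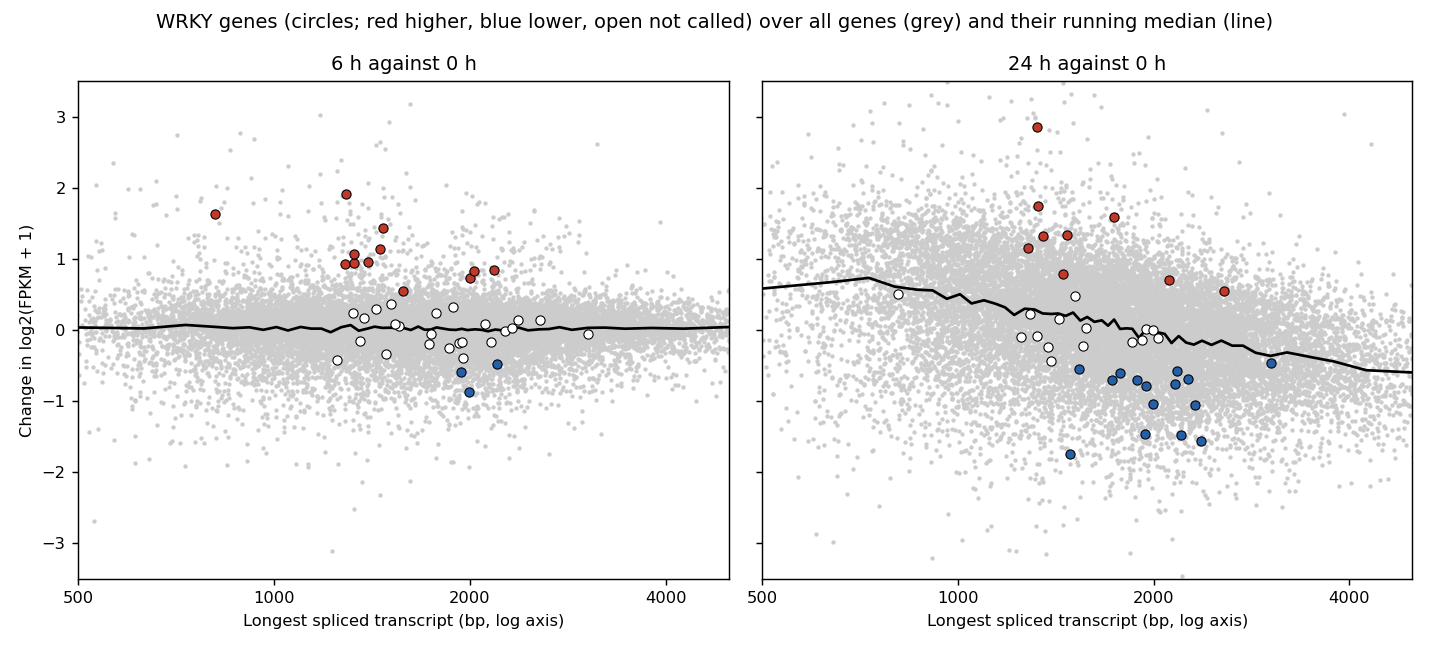
Change in log2(FPKM + 1) at 6 h and at 24 h against 0 h by length of the longest spliced transcript (log axis), for the 39 WRKY genes (circles coloured by call) over all genes with a mean of at least 1 (grey; genes outside the axes are not drawn) and their running median (line). The line is nearly flat at 6 h and slopes down with length at 24 h, where WRKY40 (2.85) lies above it and WRKY60 (-1.74) below it.

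Genes that act around the WRKY factors were examined from 3 lists. In the mitogen-activated protein kinase cascade upstream of WRKY22, WRKY29 and WRKY33, 8 of 9 genes had a mean of at least 1. At 6 h the authors' q-values called none of them, and 0 had an unadjusted p-value, recovered from the q-values, under 0.05. Their changes ran from -0.33 to 0.29. Over all 17841 genes tested, 3.98% were called higher and 7.35% lower at 6 h. At the unadjusted limit 1125 of all these genes were higher and 1759 lower. At 24 h against 0 h, MPK3 was the 1 gene called (12.5% of the list, beside 23.8% of all genes called higher), with 19.7, 24.4 and 35.0 FPKM, a rise of 0.80 and q = 0.000358 in the authors' deposited table. MKK2 (50.6, 55.5 and 37.7 FPKM) was called lower at 24 h against 6 h. Of 11 genes for VQ proteins, small partners that bind WRKY domains, 9 had a mean of at least 1. At 6 h the authors' q-values called 0 of them and 1 had an unadjusted p-value under 0.05, with changes from -0.45 to 0.68. With lists this short, counts of 0 or 1 cannot be set apart from the shares of all genes given above. At 24 h against 0 h, 1 was called higher (11.1%) and 3 lower (33.3%), near the 23.8% of all genes in each direction. Among the called genes the largest changes at 24 h were those of AT4G37710 (1.81; 1.49, 0.825 and 7.72 FPKM), PDE337 (-0.89; 14.1, 13.3 and 7.17 FPKM) and AT1G78310 (-0.67; 14.9, 11.3 and 8.99 FPKM).

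Of 16 genes known as targets of a WRKY factor of this set, 10 had a mean of at least 1. In the first 6 h 3 rose (30.0%) and 1 fell (10.0%), where 3.98% and 7.35% of all genes did. Over the whole 24 h 2 rose and 2 fell, 20.0% each, close to the 23.8% of all genes in each direction. The 2 genes risen at 24 h, JAZ8 and CYP81F2, passed the filter on low values only through the times at which they were high. CYP81F2 was also among the 3 that rose in the first 6 h. JAZ8, a jasmonate signalling repressor and target of WRKY40, had 0.953, 0.563 and 5.59 FPKM, a rise of 1.76 at 24 h with q = 0.0108 in the authors' deposited table. PHT1;1, a phosphate uptake transporter and target of WRKY45 and WRKY42, fell by 0.86 at 24 h, from 257 through 224 to 141 FPKM. PHO1, the target of WRKY6 and WRKY42, had 31.3, 31.6 and 17.2 FPKM and fell by 0.83, with q = 0.000358 in the authors' deposited table. The camalexin gene PAD3, a target of WRKY33, had 1.82, 3.36 and 1.22 FPKM. It was called higher at 6 h, with q = 0.0208 in the authors' deposited table. PAD3 was named for its role after its values were seen. ACS6, the 1 gene of this list that fell in the first 6 h, had 15.5, 9.67 and 11.5 FPKM. Its change was -0.63, with q = 0.00993 in the authors' deposited table.

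Markers of cell types and of handling moved over the same times, and their part in the WRKY changes was not tested. At 24 h against 0 h, 3 of 3 touch genes rose, and their summed level was 71.3, 102 and 188 FPKM at 0, 6 and 24 h; at 6 h TCH3 rose and TCH4 fell. All 5 root hair genes fell at 24 h, and 3 of them at 6 h, with summed levels of 1938, 1441 and 1121 FPKM. The 3 markers of dividing cells rose at 24 h, with summed levels of 26.4, 35.5 and 58.8 FPKM. Of the 3 shoot genes, 2 had a mean of at least 1 and both rose at 24 h. The summed levels over that list were 7.42, 5.57 and 20.5 FPKM. The 6 root identity markers that passed the filter were split: by 24 h SHR rose, while CASP1, SMB and SHV2 fell. SHV2 is also among the root hair genes. Beside these counts, 23.8% of all genes tested were called higher after 24 h and 23.8% lower. After 6 h the shares were 3.98% and 7.35%. The marker lists are short, and no test of an excess was made. In whole tissue, fewer cells of a type and less RNA per cell cannot be told apart.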

How the data were processed

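Polyadenylated RNA of 9 root samples was read as 100 bp single-end reads from strand-specific libraries, per the labels' protocols. TopHat2 2.0.13, Cufflinks 2.1.1, Cuffdiff and the build TAIR10 are named in the submitters' processing notes, without their settings. The deposited values are taken as FPKM, pooled by the authors to 1 value per time; the unit is inferred from the values, since the header names none. The log2 fold changes and q-values (adjusted p-values) are the authors' own, per the file headers. No test over replicates could be made, and precision is known only through those q-values.

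From these values the change in log2(FPKM + 1) was computed over all 33201 rows with Python 3.11.15, numpy 2.4.6 and pandas 2.3.3. The planned rule, a q-value below 0.05 and a mean of at least 1, was kept; q-values were adjusted by the authors over all genes. Within-comparison adjustment used p-values recovered by treating the q-values as a Benjamini-Hochberg adjustment pooled over 53530 tests. Transcript lengths, overlaps and the 300 base windows come from the RefSeq annotation of TAIR10.1; 98.1% of the rows with a mean of at least 1 had a length, and its running median over 50 bins gave the length trend. The steps were tested on simulated data. Genes were named by rule: every member, and from each context list up to 3 called genes with the largest change at 24 h. PAD3, ACS6 and CYP81F2 of the target list were named outside this rule. Members and lists were chosen with earlier results of these data known. Protein sequences were not used here.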

Additional observations from a re-analysis of the deposited data

How the results depend on the processing

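No paired analysis was possible because the authors pooled replicates, leaving no column with a replicate number; fits that leave out a replicate were not run for the same reason. A minimum change of 1 in log2(FPKM + 1) left 5 of the 15 WRKY calls at 6 h (5 higher, 0 lower), 12 of the 24 at 24 h against 0 h (6 and 6, from 9 and 15) and 11 of the 22 between 6 and 24 h (3 and 8). The same limit on the log2 values in the authors' deposited table left 7 (7 and 0), 13 (7 and 6) and 12 (3 and 9). At 24 h against 0 h, falls thus no longer outnumbered rises under either limit. The share of all genes at these limits was not computed. Under no filter, a minimum mean of 5, a q-value limit of 0.01, adjustment within the comparison, or a sign kept without the length trend, the total counts stayed within 1.5 times the reported ones. By direction, a minimum mean of 5 left 6 of the 9 higher calls at 24 h against 0 h and 3 of the 5 between 6 and 24 h, and the adjustment and the limit of 0.01 each left 2 of the 3 lower calls at 6 h. The limit of 0.01 kept 13, 19 and 20 of the calls. The median change at 24 h against 6 h moved from -0.41 to -0.51 with a pseudocount of 0.1, to -0.53 without the length trend and to -0.52 with a minimum mean of 5; the other medians moved by at most 0.1. All 61 called changes kept their sign under the pseudocount of 0.1, both scalings and removal of the length trend, with shifts of at most 0.73, 0.048, 0.17 and 0.65 for that pseudocount, median-of-ratios scaling, quantile normalization and the length trend. The scalings cannot change the authors' q-values.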

Other observations

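The reference names 27 further protein-coding WRKY loci, of which 25 had a row of their own and 16 a mean of at least 1. Of these 16, 5 were called higher and 0 lower at 6 h against 0 h by the authors' q-values, where 3.98% and 7.35% of all genes were. At 24 h against 0 h 4 were higher (25.0%) and 5 lower (31.2%), near the 23.8% of all genes in each direction. Of the 5 higher at 6 h, ABO3, WRKY71 and WRKY58 passed the filter on low values only through the times at which they were high. At an unadjusted p-value under 0.05, recovered from those q-values, 6 of the 16 were higher and 1 lower at 6 h. At that limit 1125 of all 17841 genes tested were higher and 1759 lower. WRKY38, a group III factor known to restrain basal defence, had 2.39, 8.53 and 27.2 FPKM at 0, 6 and 24 h, a rise of 1.49 at 6 h and 3.06 at 24 h, with q = 0.000358 for both in the authors' deposited table. Its relative WRKY62 had 0.0529, 0.797 and 4.48 FPKM and was called higher at 24 h against 6 h, with q = 0.00174 in the authors' deposited table; it passed the filter only through its 24 h level. WRKY51, known from jasmonate and salicylic acid crosstalk, had 6.37, 15.2 and 22.7 FPKM and rose by 1.14 at 6 h and 1.69 at 24 h against 0 h. In the 300 base windows of these 27 loci, 40.7% had a W box and 25.9% a TGACG.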
